A study of Mus musculus with 12 samples.

Results

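Transcripts of 10 genes of the Polycomb repressive complexes were followed over 12 arrays of mouse F9 cells. They were Ezh1, Ezh2, Eed, Suz12, Jarid2, Rnf2, Bmi1, Cbx2, Cbx7 and Phc1, and every probe set was taken that the platform annotation assigns to 1 of these symbols alone. This gave 29 of the 45037 probe sets tested, for 10 of the 18193 genes. A probe set is a group of short oligonucleotides that measures 1 transcript region. Of the 29 probe sets 23 had a mean signal above the background level of 81.6, and each gene had at least 1 such set. The 6 sets below background belonged to Ezh1 (2), Rnf2 (2), Eed (1) and Cbx7 (1).

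F9 is a mouse teratocarcinoma line, a tumour-derived stem cell that takes on endoderm character under retinoic acid (RA). Wild-type cells (WT) and cells labelled as knockout (KO) for Rarg, the gene of retinoic acid receptor gamma, were kept for 24 h in 1 µM RA or in its ethanol vehicle, which makes 4 groups of 3 arrays: WT_vehicle, WT_RA, KO_vehicle and KO_RA. All groups shared the same serum-containing medium. How many KO clones there were and which part of Rarg was disrupted is not given in the sources used here, so the KO label cannot be told apart from any other difference between the lines.

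Polycomb proteins keep developmental genes silent through chromatin. Polycomb repressive complex 2 (PRC2) places methyl groups on lysine 27 of histone H3, with Ezh1 or Ezh2 as its enzyme and Eed and Suz12 as its core partners, while Polycomb repressive complex 1 (PRC1) carries the ubiquitin ligase Rnf2 (Ring1B) together with Bmi1 or a relative, a Cbx protein that can read the PRC2 mark, and a Phc protein that joins complexes into larger assemblies. The Hox clusters are their best known targets, and in embryonal carcinoma and embryonic stem cells RA is known to open these clusters from the 3′ end.

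The values were MAS5 signal intensities, and changes are log2 differences of signal + 16 from a limma fit across all probe sets, with its standard error (SE), its 95% interval and a Benjamini-Hochberg adjusted p. "Rose", "fell", "higher" and "lower" as a call mean an adjusted p under 0.05. Arrays that shared a hybridization time were taken as 1 fluidics run, a name that the labels do not give. There were 3 such runs, each holding 1 array of every group: run 1 held replicate 3, run 2 replicate 1 and run 3 replicate 2. Run 1 was also the set of arrays with letter-coded titles, the others having numbers, so run 1 and that sample set cannot be told apart. Because each run held every group, within-run values, and values of a blocked fit that takes the run into account, stand beside the results. The chip lots, named A and B here, were not balanced. Lot B held KO_vehicle replicates 1 and 2, KO_RA replicate 1 and WT_RA replicate 3, and lot A the other arrays. Within runs 2 and 3, KO against WT in vehicle therefore cannot be told apart from lot B against lot A. Calls come from the fit without the run unless the block is named. The array median signal was 71.2 to 94.6 on 11 arrays and 143 on KO_vehicle replicate 3. The recorded time from hybridization to scan of that array was 316 min. It was 238 min on KO_RA replicate 1 and 13 to 59 min on the rest. Rarg itself had mean signals of 1476, 1243, 1636 and 1357 in WT_vehicle, WT_RA, KO_vehicle and KO_RA, so it was not lower under the KO label, and where its probes lie relative to the disruption is not known here. All 10 F9 stem cell markers were above background. The summed signal of 15 endoderm markers (12 above background; Afp, Ttr and Thbd below it) was 88561 to 92596 in WT_vehicle, 76986 to 100810 in WT_RA, 12457 to 39147 in KO_vehicle and 14190 to 42540 in KO_RA. The summed endoderm markers were therefore high in WT cells before any RA was added, and lower in every KO array than in every WT array. The KO arrays were not alike. Dab2 read 1470, 1563 and 124 in KO_vehicle replicates 1, 2 and 3, and 1430, 1610 and 198 in KO_RA. In WT_vehicle it read 10778, 10335 and 8214. Col4a1 read 7107, 6756 and 1119 in KO_vehicle, beside 15248, 15633 and 16034 in WT_vehicle. Foxa2 was highest in replicate 3 of KO_vehicle (101, 91.6 and 153). The reason was not tested. Of markers of other cell types, 3 of 15 for fibroblasts and muscle were above background (Col6a3, Acta2 and Des), as were 3 of 12 for blood (Adgre1, Csf1r and Cd68) and 2 of 10 for endothelium (Esam and Egfl7), while the defining Col1a1, Col3a1, Ptprc and Cdh5 were below it. Over all arrays the summed signals of these lists were 677 to 2392, 653 to 1480 and 958 to 2098.

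No Polycomb probe set was called under RA without the run in the fit, while several differed between the lines. In WT, 0 of the 29 probe sets changed under RA in limma's fit (2 at an unadjusted p under 0.05), against 0.469% of all probe sets, and in the blocked fit 1 fell, that of Phc1 (2.11% of all). In KO, 0 changed in either fit (0 at an unadjusted p under 0.05), against 0.0799% and, blocked, 0.302%. The difference between these changes, KO minus WT, gave 0 calls in both fits (2 at an unadjusted p under 0.05), as it did for 0% of all probe sets without the block and 0.0488% with it. Between the lines, 3 of 29 differed in vehicle, 2 higher and 1 lower in KO, where 4.31% of all did (1.74% higher, 2.56% lower). Under RA, 4 differed, 3 higher and 1 lower, where 4.94% of all did (2.22% and 2.72%). In the blocked fit these counts became 9, with 8 higher and 1 lower (9.4% of all; 4.32% and 5.08%), and 10, with 8 higher and 2 lower (9.92% of all; 4.73% and 5.19%). The unblocked count in vehicle was 1 without KO_vehicle replicate 1 or 2 or without WT_vehicle replicate 1 or 2, and the count in RA was 1 without WT_RA replicate 2 and 2 without WT_RA replicate 1, KO_RA replicate 1 or KO_vehicle replicate 2. The median over the 29 sets was 0.04 for RA in WT and -0.05 for RA in KO, beside 0.05 and -0.11 over all probe sets. For KO against WT the median of the members was 0.52 in vehicle and 0.47 under RA, beside 0.17 and -0.05. Centring each array on its median moved these last values of all probe sets by -0.22 and 0.13. Several of the 29 sets read the same gene, so they are not independent, and 23 of them were above background beside 22122 of all 45037. In vehicle, all 3 KO arrays lay above all 3 WT arrays for 10 of the 29 sets and below for 1, where 11.5% and 8.35% of all sets did so. In RA these counts were 12 and 2, where 9.83% and 12.6% did so. These are bulk RNA values, in which fewer cells of a kind and less RNA per cell cannot be told apart.

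**Figure D1:**
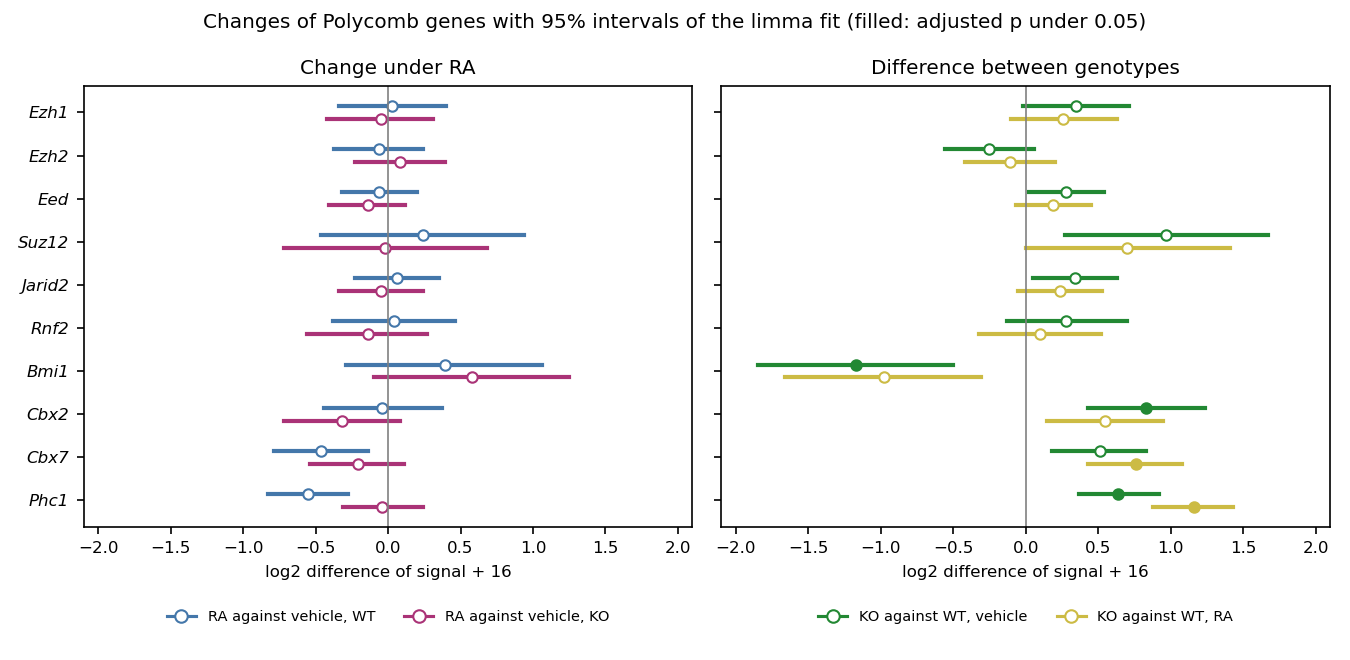
Log2 changes of the 10 Polycomb genes, each by its brightest probe set, with 95% intervals of the limma fit: the left panel compares RA with vehicle in each line, the right panel KO with WT in each treatment. Filled circles have an adjusted p under 0.05; none is filled on the left, and on the right they are Bmi1, Cbx2 and Phc1 in vehicle and Cbx7 and Phc1 in RA.

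Promoters are shown for the members whose brightest probe set was called between the lines in either fit (other than Cbx2), and for Hoxa5, the Hox gene called in every comparison but the difference (these genes were picked after their values were seen), because CpG-rich promoters are the usual Polycomb landing sites in mammals and RA receptors act through short DNA motifs. The sequences are the 250 bases before the RefSeq start on GRCm38.p6, read 5′ to 3′ on the gene's strand, with CpG dinucleotides in capitals. Phc1 lies at chr6:122340228-122340477 on the minus strand, Bmi1 at chr2:18676768-18677017 on the plus strand, Cbx7 at chr15:79932647-79932896 on the minus strand, Suz12 at chr11:79992856-79993105 on the plus strand and Hoxa5 at chr6:52204588-52204837 on the minus strand.
Phc1: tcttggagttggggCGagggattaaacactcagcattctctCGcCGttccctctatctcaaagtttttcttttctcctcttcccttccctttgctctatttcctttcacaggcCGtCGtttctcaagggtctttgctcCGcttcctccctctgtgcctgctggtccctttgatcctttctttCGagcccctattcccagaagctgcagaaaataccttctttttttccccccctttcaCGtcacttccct
Bmi1: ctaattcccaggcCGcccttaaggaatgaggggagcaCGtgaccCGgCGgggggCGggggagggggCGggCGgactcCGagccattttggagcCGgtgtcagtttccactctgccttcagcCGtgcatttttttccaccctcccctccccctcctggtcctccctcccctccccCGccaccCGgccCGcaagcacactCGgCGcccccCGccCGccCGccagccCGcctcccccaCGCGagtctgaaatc
Cbx7: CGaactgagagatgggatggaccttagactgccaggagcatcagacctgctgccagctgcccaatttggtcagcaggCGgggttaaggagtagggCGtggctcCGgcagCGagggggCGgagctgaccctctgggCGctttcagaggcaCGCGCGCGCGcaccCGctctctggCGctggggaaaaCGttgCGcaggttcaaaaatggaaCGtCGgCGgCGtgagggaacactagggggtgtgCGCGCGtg
Suz12: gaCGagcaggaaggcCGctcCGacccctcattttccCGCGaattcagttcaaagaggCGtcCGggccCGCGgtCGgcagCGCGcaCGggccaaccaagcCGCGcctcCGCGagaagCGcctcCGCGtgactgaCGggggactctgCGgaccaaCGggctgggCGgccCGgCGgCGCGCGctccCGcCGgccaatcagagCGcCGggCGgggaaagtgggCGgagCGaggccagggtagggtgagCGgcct
Hoxa5: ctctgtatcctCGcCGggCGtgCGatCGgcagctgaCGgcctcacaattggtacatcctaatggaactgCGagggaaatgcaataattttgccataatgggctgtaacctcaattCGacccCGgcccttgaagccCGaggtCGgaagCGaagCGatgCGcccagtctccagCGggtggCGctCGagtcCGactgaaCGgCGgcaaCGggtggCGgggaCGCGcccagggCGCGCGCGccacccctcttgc
RefSeq windows of 300 bases, 250 before and 50 after the start, were found for 9 of the 10 members (10 windows, none for Cbx2) and 8 Hox genes of groups 1 to 5. The member windows held 9 to 41 CpG (median 23.5) and the Hox windows 9 to 29 (median 17), against a median of 7 and quartiles of 3 and 20 over 32851 windows. Phc1 had the fewest CpG among the members (9) and Suz12 the most (41). The hexamer AGGTCA, a single binding element of RA receptors, was searched on both strands together with its relatives. These had the letters AGTTCA for one, GGGTCA for another and GGTTCA for the last, and matches could overlap. At least 1 of the 4 hexamers stood in 3 of 10 member windows and 4 of 8 Hox windows, and in 43.7% of all windows. Bmi1 held GGGTCA, Cbx7 held that hexamer and GGTTCA, and Suz12 held AGTTCA. Hoxa5, Hoxb4, Hoxc4 and Hoxd3 held AGGTCA, and Hoxc4 also held AGTTCA. The spaced pair known as DR5 (a pair of these hexamers in the same direction with 5 bases between) was in 0 of the member and Hox windows and in 0.0974% of all. A match is only the presence of these letters.

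Among the core PRC2 genes, no change under RA was called in either line, and between the lines Suz12 alone was called, in the blocked fit. Ezh2, the main methyltransferase of dividing cells, had signals of 2737, 2927 and 2303 in WT_vehicle replicates 1, 2 and 3, of 2792, 2732 and 2119 in WT_RA, of 2245, 2309 and 2105 in KO_vehicle and of 2288, 2378 and 2359 in KO_RA. Its groups overlapped in every comparison, and replicate 3 was the lowest WT array in both treatments. The RA change of Ezh2 in WT was -0.06 with a 95% interval of -0.37 to 0.24 (limma adjusted p = 0.995). KO against WT it was -0.25 in vehicle (SE 0.146, adjusted p = 0.429) and -0.11 in RA (adjusted p = 0.844). Ezh1, the related enzyme that is more prominent in resting cells, gave 487, 552 and 563 in WT_vehicle, 512, 567 and 557 in WT_RA, 714, 653 and 682 in KO_vehicle and 714, 565 and 704 in KO_RA. All KO_vehicle arrays exceeded all WT_vehicle arrays for Ezh1, by 0.35 on the log2 scale, which did not pass (SE 0.174, limma adjusted p = 0.343, blocked 0.204). A second Ezh1 set above background gave -0.02 in vehicle, and the others were below background.

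Eed, the WD40 protein that binds the finished mark, had signals of 5281, 5532 and 5329 in WT_vehicle, 5000, 5264 and 5228 in WT_RA, 7138, 6620 and 5867 in KO_vehicle and 6227, 5948 and 5543 in KO_RA. The KO arrays lay above the WT arrays in both treatments. The differences were 0.28 in vehicle (SE 0.124, limma adjusted p = 0.275, blocked 0.122) and 0.19 in RA (adjusted p = 0.554, blocked 0.364), so Eed was not called. Under RA in WT its arrays lay just below those in vehicle, a change of -0.06 with a 95% interval of -0.32 to 0.20. Averaging over all Eed sets, which include a set below background, turned the sign of this uncalled change, as given in the last section.

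Suz12, the scaffold that holds PRC2 together, had signals of 4438, 4288 and 1337 in WT_vehicle, 4096, 3631 and 2842 in WT_RA, 6626, 6462 and 4495 in KO_vehicle and 6786, 6097 and 4437 in KO_RA. KO arrays were above WT arrays in both treatments, and in each group replicate 3, of run 1, was the lowest. WT_vehicle replicate 3 stood far below the rest, also in the other bright Suz12 sets (1454 beside 4743 and 4406, and 962 beside 3564 and 3535). The Gapdh and Actb 3′ to 5′ signal ratios of that array, 0.805 and 1.29, were within those of the other arrays (0.771 to 0.865 and 1.21 to 1.35). KO against WT, Suz12 differed by 0.97 in vehicle (SE 0.332, limma adjusted p = 0.128) and by 0.70 in RA (SE 0.332, adjusted p = 0.334). In the blocked fit both were called (adjusted p = 0.000832 and 0.012). Within runs 1, 2 and 3 the Suz12 difference in vehicle was 1.74, 0.58 and 0.59, and under RA it was 0.64, 0.73 and 0.74. Leaving out WT_vehicle replicate 3 gave 0.40 in vehicle (adjusted p = 0.378). The 5 other Suz12 sets gave 0.61 to 1.05 in vehicle and 0.47 to 1.02 in RA, and 2 of these 5 were called in each treatment with the block. Under RA, Suz12 changed by 0.24 in WT, with a wide interval of -0.46 to 0.94 and within-run values of 1.08, -0.12 and -0.24, and by -0.02 in KO.

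Jarid2, a DNA-binding partner that helps to bring PRC2 to its sites and is high in pluripotent cells, had signals of 10949, 10530 and 9194 in WT_vehicle, 10602, 10830 and 10507 in WT_RA, 13608, 14141 and 11259 in KO_vehicle and 12552, 13929 and 11271 in KO_RA. All KO arrays exceeded all WT arrays in the same treatment. The difference was 0.34 in vehicle (SE 0.137, limma adjusted p = 0.209, blocked 0.0522) and 0.24 in RA (adjusted p = 0.488, blocked 0.237). Of the other Jarid2 sets, the dimmer gave 0.52 and 0.56 (adjusted p = 0.17 and 0.127) and was called in both with the block (0.00494 and 0.0023), and the brighter gave 0.37 in vehicle (blocked adjusted p = 0.0472). Jarid2 under RA moved by 0.06 in WT (95% interval -0.23 to 0.35) and -0.05 in KO (-0.34 to 0.24).

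**Figure D2:**
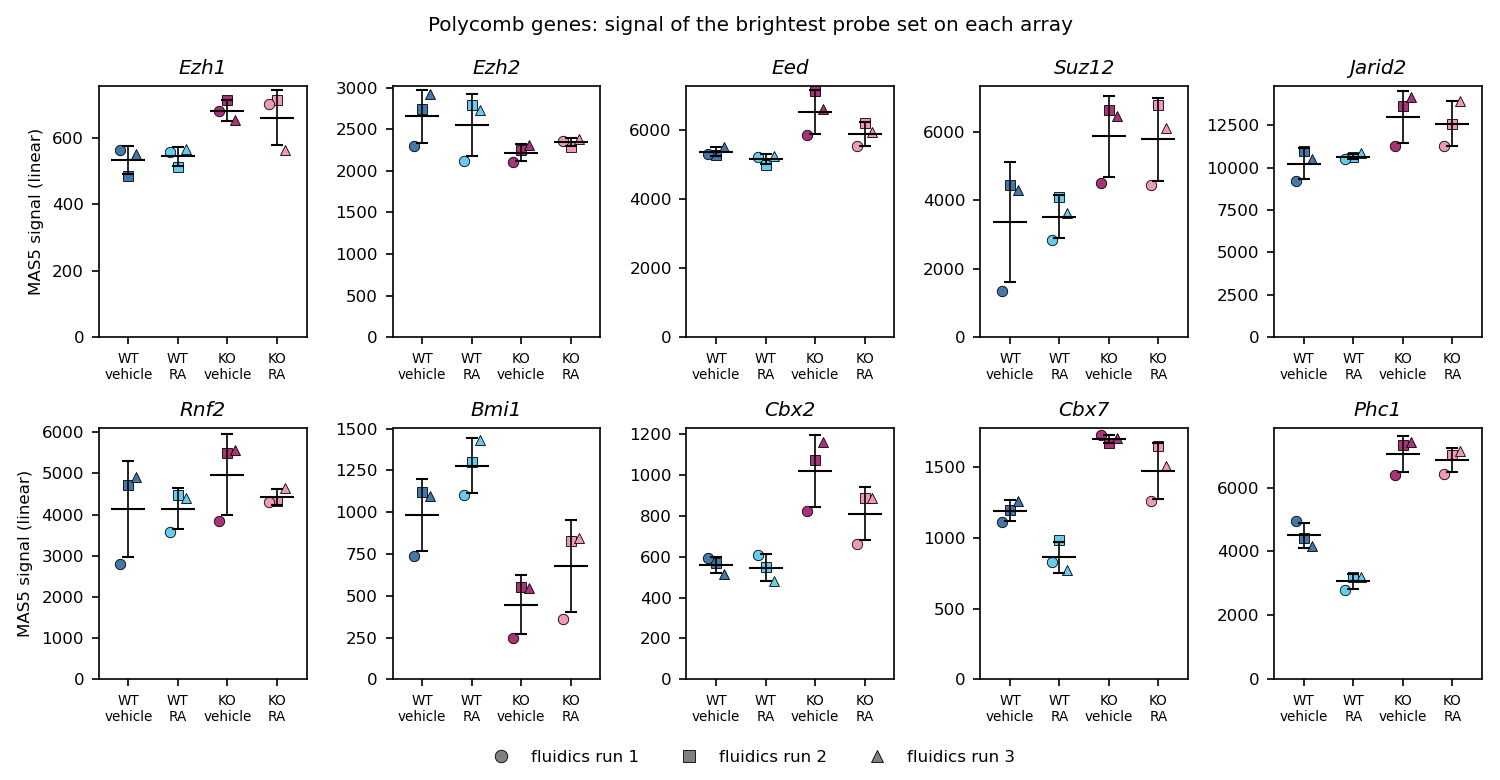
MAS5 signal (linear axis from 0) of the brightest probe set of each of the 10 genes on every array; marker shapes give the fluidics run, the long bar the mean and the whiskers the SD of 3 arrays. Phc1 runs from 2801 to 4946 in WT and from 6403 to 7419 in KO, Bmi1 is lowest in KO_vehicle, and Suz12 shows the single low WT_vehicle array at 1337.

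In PRC1 the lines differed gene by gene: Phc1, Cbx2 and Cbx7 were higher in KO and Bmi1 was lower, while no difference was called for the catalytic subunit Rnf2. Rnf2, the ligase that ubiquitinates histone H2A, had signals of 4711, 4907 and 2805 in WT_vehicle, 4469, 4398 and 3568 in WT_RA, 5504, 5556 and 3836 in KO_vehicle and 4336, 4655 and 4299 in KO_RA. Its groups overlapped, and replicate 3 was the lowest in each group. KO against WT, Rnf2 gave 0.28 in vehicle (SE 0.198, limma adjusted p = 0.525, blocked 0.196) and 0.10 in RA (adjusted p = 0.909), and none of its 5 sets was called in any comparison.

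Bmi1, the Polycomb ring finger partner of Rnf2 and a known driver of stem cell self-renewal, had signals of 1120, 1099 and 737 in WT_vehicle, 1300, 1433 and 1103 in WT_RA, 552, 544 and 247 in KO_vehicle and 831, 846 and 363 in KO_RA. No KO array reached the WT arrays of its treatment, and replicate 3 was again the lowest of every group. The group means were 985 ± 215 (SD, n = 3) in WT_vehicle and 448 ± 174 in KO_vehicle, a difference of -1.17 (SE 0.320, 95% interval -1.85 to -0.50, limma adjusted p = 0.0471, blocked 6.31e-05). Within runs 1, 2 and 3 it was -1.52, -1.0 and -0.99. This unblocked call was close to the threshold: it was kept in 3 of 12 fits that left out 1 array and lost in 9, with the highest adjusted p, 0.204, without KO_vehicle replicate 3. In RA the difference of Bmi1 was -0.98 (adjusted p = 0.101, blocked 0.000377). The second Bmi1 set read 428, 420 and 161 in WT_vehicle, 623, 589 and 384 in WT_RA, 285, 215 and 107 in KO_vehicle and 150, 284 and 105 in KO_RA. In this set the lines separated in RA, with a difference of -1.56 (adjusted p = 0.0381, blocked 0.000178). That call was lost with centred arrays (-1.43, adjusted p = 0.113) and with quantile normalization (-1.41, 0.11). It was kept in 7 of 12 left-out fits and lost without WT_RA replicate 1 (0.167) or 2 (0.154), KO_RA replicate 1 (0.125) or 3 (0.157) or KO_vehicle replicate 2 (0.054). In vehicle its arrays overlapped (-0.67, adjusted p = 0.467). Under RA, Bmi1 gave 0.39 in WT and 0.58 in KO by the brighter set (adjusted p = 0.939 and 0.869), with within-run values of 0.53 to 0.62 in KO, and 0.72 and -0.17 by the second set.

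Cbx2, a chromodomain protein that compacts chromatin, had signals of 570, 515 and 593 in WT_vehicle, 552, 480 and 609 in WT_RA, 1073, 1160 and 823 in KO_vehicle and 888, 885 and 660 in KO_RA. The KO arrays were all above the WT arrays of their treatment. The mean went from 560 ± 40.1 (SD, n = 3) in WT_vehicle to 1019 ± 175 in KO_vehicle, a difference of 0.83 (SE 0.190, 95% interval 0.43 to 1.24, limma adjusted p = 0.0167, blocked 0.00174), with 0.46, 0.89 and 1.15 in runs 1, 2 and 3. The call of Cbx2 was kept in 8 of 12 left-out fits and lost without KO_vehicle replicate 1 (0.0668) or 2 (0.0967) or WT_vehicle replicate 1 (0.0534) or 2 (0.0692), and after centring each array on its median the difference was 0.62 (adjusted p = 0.316). In RA it was 0.55 (adjusted p = 0.131, blocked 0.0386). The dimmer Cbx2 set gave 0.50 and 0.75 (adjusted p = 0.514 and 0.305).

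Cbx7, the chromodomain protein known as the main Cbx subunit of mouse embryonic stem cells, had signals of 1199, 1262 and 1113 in WT_vehicle, 986, 771 and 831 in WT_RA, 1668, 1705 and 1724 in KO_vehicle and 1647, 1507 and 1260 in KO_RA. WT_RA was the lowest group and did not overlap with any other, and every KO array was above the WT_vehicle arrays except KO_RA replicate 3, whose 1260 lay just under the highest of them. The RA change in WT was -0.46 (SE 0.154, 95% interval -0.79 to -0.14), with -0.41, -0.28 and -0.70 in runs 1, 2 and 3, and did not pass over all probe sets (limma adjusted p = 0.388, blocked 0.0718). In KO it was -0.21 (adjusted p = 0.911), and the difference between these changes was 0.25 with an interval of -0.21 to 0.71. Between the lines, Cbx7 was higher in KO in RA by 0.76 (SE 0.154, adjusted p = 0.00628, blocked 0.000306; 0.59, 0.73 and 0.95 within the runs), a call kept in 11 of 12 left-out fits and lost without WT_RA replicate 2 (0.0537). In vehicle the difference was 0.51 (adjusted p = 0.0781, blocked 0.0131; 0.62, 0.47 and 0.43 within the runs). A dim second set, at 74.4, 16.7 and 62.8 in WT_RA and 215, 301 and 132 in KO_RA, was also called higher in RA, by at least 2.26-fold since its WT_RA values were below the background level (adjusted p = 0.043, blocked 0.0108). This call was kept in 4 of 12 left-out fits and lost with centred arrays (adjusted p = 0.0578) and with quantile normalization (0.0626). Lost calls of this set ranged up to an adjusted p of 0.223 without WT_RA replicate 2.

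Phc1, the polyhomeotic-like protein that links PRC1 complexes and is high in undifferentiated stem cells, was called between the lines in both treatments. Its signals were 4408, 4172 and 4946 in WT_vehicle, 3205, 3201 and 2801 in WT_RA, 7347, 7419 and 6403 in KO_vehicle and 7012, 7140 and 6439 in KO_RA. The order was WT_RA below WT_vehicle below both KO groups, with no overlap between the first, the second and the KO groups, while the KO groups overlapped with each other. The KO means were 7056 ± 567 (SD, n = 3) in vehicle and 6864 ± 373 in RA, beside 4509 ± 397 and 3069 ± 232 in WT. KO against WT, Phc1 was higher by 0.64 in vehicle (SE 0.130, 95% interval 0.37 to 0.92, limma adjusted p = 0.00736, blocked 0.000433; 0.37, 0.73 and 0.83 within the runs). In RA it was higher by 1.16 (SE 0.130, interval 0.88 to 1.43, adjusted p = 3.41e-05, blocked 2.04e-07; 1.20, 1.13 and 1.15 within the runs). Both calls were kept in 12 of 12 fits with 1 array left out. With arrays centred on their medians the vehicle difference was 0.43 and not called (adjusted p = 0.501), and that in RA was 1.29 (0.00542). Under RA, Phc1 changed by -0.55 in WT (SE 0.130, interval -0.83 to -0.28), short of the threshold without the block (adjusted p = 0.0853) and past it with the block (0.00763), and was lower in each run (-0.82, -0.46 and -0.38). In KO the change was -0.04 with an interval of -0.31 to 0.24. The difference between the changes, 0.51 (SE 0.184, interval 0.13 to 0.90, unadjusted p = 0.0125), did not pass over all probe sets (adjusted p = 0.978, blocked 0.514), and was 0.82, 0.39 and 0.33 within the runs.

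**Figure D3:**
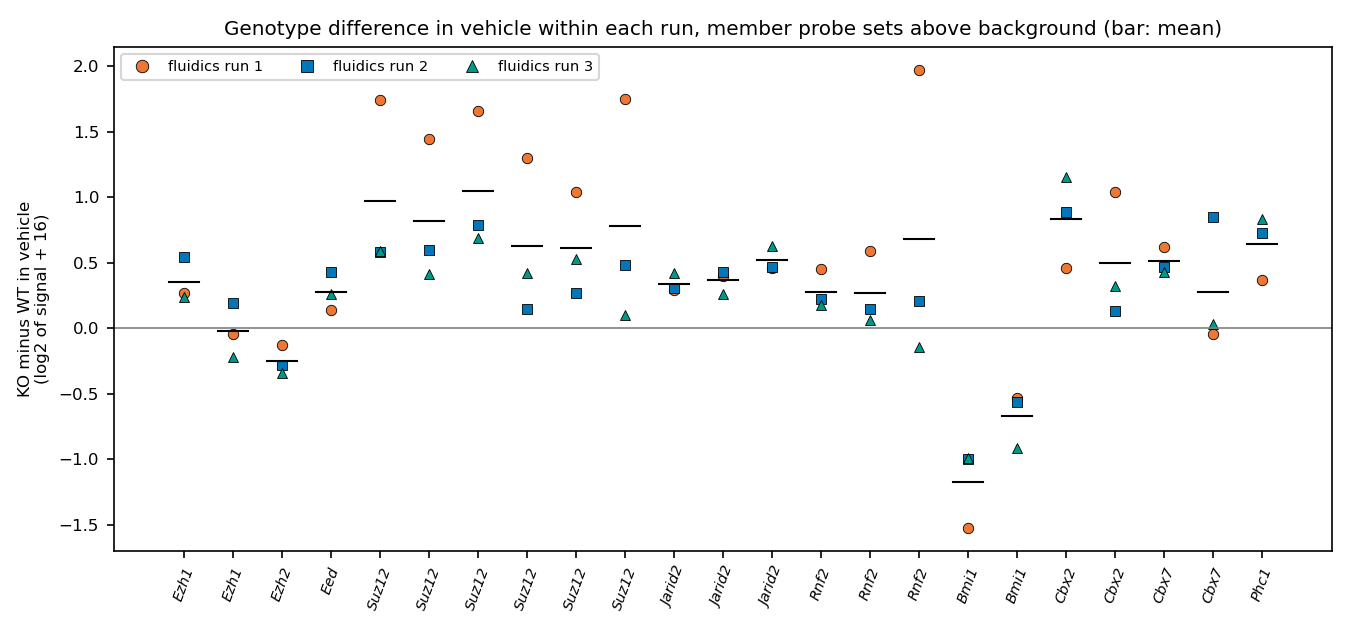
KO minus WT in vehicle (log2 of signal + 16) within each fluidics run for the member probe sets above background; bars are the mean over the runs. The Phc1, Cbx2 and Suz12 points all lie above 0 and the Bmi1 points all below, with Suz12 farthest up in run 1, at 1.74 for its brightest set.

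Within PRC1 the called differences between the lines had opposite signs. By gene, in vehicle 2 of the 10 members were higher and 1 lower (6.42% of all genes were called), and in RA 2 were higher and 0 lower (7.55% of all genes). With the block these were 4 higher and 1 lower in each treatment (13.5% and 14.5% of all genes). The blocked genes were Suz12, Cbx2, Cbx7 and Phc1 on the higher side and Bmi1 on the lower side. The summed endoderm markers were lower in every KO array than in every WT array and the summed stem cell markers were higher, at 133900 to 160646 in KO_vehicle and 131159 to 142061 in KO_RA, beside 118260 to 123781 in WT_vehicle and 84364 to 98206 in WT_RA. Of the 10 stem cell markers, 5 fell under RA in WT (0.824% of all genes were called) and 0 changed in KO (0.148%, with 2 markers at an unadjusted p under 0.05). Between the lines 4 were higher in KO in vehicle and 6 under RA. In vehicle Pou5f1 went the other way without a call (-0.39, limma adjusted p = 0.36), all its KO arrays lying below all WT arrays, and Sall4 gave -0.20 (0.594). Dppa5a, the largest part of the sums, was not called (mean 48762 in WT_vehicle and 50245 in KO_vehicle). Of the 15 endoderm markers, 8 were lower in KO in each treatment. The part of these marker levels in the Polycomb differences was not tested.

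Genes whose 4 group means followed a member most closely were sought among 10879 genes above background, by the root mean square (RMS) difference of the group means on the log2 scale after centring each gene over the 4 groups. For Phc1 these were Sowahb, Gfpt2 and Rnd1 (RMS difference 0.0279 for the first), for Cbx7 Faap24, Prmt3 and Ddr1 (0.0255), for Cbx2 Vat1l, Dnajc21 and Mst1 (0.03) and for Bmi1 Macroh2a1, Gm20559 and AI413582 (0.0369). With 4 group means the likeness is a description only.

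In the rest of the Polycomb system no gene was called under RA without the block, and single genes differed between the lines. Of 9 other PRC2 genes 0 were called in any comparison without the block (1 at an unadjusted p under 0.05 for RA in WT), where 0.824% of all genes were called for RA in WT (3.35% blocked) and 0.148% for RA in KO (0.495% blocked). Mtf2, a Polycomb-like PRC2 partner, gave 0.71 for RA in WT (limma adjusted p = 0.417, blocked 0.0217), with 1.53, 0.36 and 0.23 in runs 1, 2 and 3, and WT_vehicle replicate 3 was its low array, at 3695 beside 8329 and 8346. Between the lines, in the blocked fit, Epop, an elongin-binding PRC2 partner, was higher in KO in vehicle (0.41, blocked adjusted p = 0.0339) and in RA (0.48, 0.0107), Aebp2 was higher in vehicle (0.47, 0.0184) and Lcor was lower in RA (-0.86, 0.0243). For RA in WT, Phf1, another Polycomb-like protein, gave 0.65 and Aebp2, a partner of Jarid2 in PRC2, 0.32 (adjusted p = 0.833 and 0.872). Of 21 other measured PRC1 genes 0 changed under RA in WT (2 at an unadjusted p under 0.05), the smallest p values being those of L3mbtl2 (-0.45, adjusted p = 0.533), Yaf2 (0.39, 0.704) and Kdm2b (-0.51, 0.85). Between the lines L3mbtl2, a chromatin reader of variant PRC1, was higher in KO, with signals of 1179, 1268 and 1261 in WT_vehicle and 2378, 2349 and 1875 in KO_vehicle, by 0.82 (adjusted p = 0.00903), and by 0.88 in RA (0.00396). Phc2, the relative of Phc1, went the other way, with 928, 1142 and 1644 in WT_vehicle and 624, 601 and 527 in KO_vehicle, a difference of -1.03 (adjusted p = 0.0039), and -0.71 in RA (0.039). The KO and WT arrays of Phc2 did not overlap in either treatment. The 19 other genes of this list were not called in either treatment without the block. In the blocked fit 5 of the 21 were called in vehicle and 6 in RA, where 13.5% and 14.5% of all genes were.

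The enzymes that oppose Polycomb were treated in the same way. Of all genes, 0.824% were called for RA in WT (3.35% blocked). Between the lines 6.42% of all genes were called in vehicle and 7.55% in RA (13.5% and 14.5% blocked). Of the 6 genes of the deubiquitinase complex PR-DUB, which removes the Rnf2 mark, Asxl1 alone was called: it was higher in KO by 0.80 in vehicle (limma adjusted p = 0.00456) and 0.77 in RA (0.0046), with signals of 1104 to 1187 in WT_vehicle and 1712 to 2209 in KO_vehicle. For RA in WT its relative Asxl2 (0.66), the partner Foxk1 (-0.32) and the catalytic Bap1 (-0.20) had the smallest p values of that list and were not called (adjusted p = 0.745, 0.93 and 0.944). Of the 3 H3K27 demethylase genes, Kdm6b was higher in KO by 0.63 in vehicle (adjusted p = 0.0422, blocked 0.00427) and 0.72 in RA (0.0168), and gave 0.17 under RA in WT (0.958). Kdm6a gave 0.33 under RA in WT (adjusted p = 0.958), and Uty was below background and not called (0.741). Of 13 measured genes of trithorax and COMPASS complexes, which methylate H3 lysine 4, 0 were called under RA in WT without the block (3 at an unadjusted p under 0.05) and 4 with it (2 higher, 2 lower). Rbbp5 and Wdr5, shared core subunits, gave -0.58 and -0.55 (adjusted p = 0.0786 and 0.0934, blocked 0.00693 and 0.0044), with WT_RA below WT_vehicle on all arrays for each. Paxip1, a subunit of the Kmt2c and Kmt2d complexes, gave 0.53 (0.308, blocked 0.0148), and under RA it was lower in KO, with a difference of -0.89 (adjusted p = 0.00288), the only call of that list between the lines without the block, while the blocked fit called 4 in each treatment.

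Beside these movements, many Hox genes near the 3′ ends of the clusters rose in WT. In paralog groups 1 to 5 the arrays measured 13 Hox genes. Of these 7 rose under RA in WT, where 0.489% of all genes rose. With the block 8 rose, where 3.35% of all genes were called in either direction. The fitted median change of the 13 in WT was 2.43, beside 0.05 over all genes. In KO 1 of the 13 rose (0.137% of all genes rose), with a median of 0.28 beside -0.05. Many of these genes lie below background in vehicle, so the medians are no bounds. Hoxa5 had signals of 948, 844 and 525 in WT_vehicle, 5418, 5164 and 4312 in WT_RA, 38.0, 17.8 and 79.8 in KO_vehicle and 161, 185 and 261 in KO_RA. Its 4 groups did not overlap at all, and the lowest WT array was above the highest KO array. The change was 2.70 in WT (SE 0.321, limma adjusted p = 0.000365), and in KO the rise of Hoxa5, from below background, was at least 2.20-fold (adjusted p = 0.023). Hoxb2 read 14.4, 11.2 and 32.4 in WT_vehicle, 617, 523 and 933 in WT_RA, 60.0, 17.8 and 29.7 in KO_vehicle and 149, 62.9 and 188 in KO_RA. In WT it rose at least 7.03-fold (adjusted p = 0.000165), and the KO change was not called (0.606). The other Hox genes called under RA in WT were Hoxb1 (at least 6.52-fold), Hoxb4 (at least 4.30-fold), Hoxa4 (at least 4.10-fold), Hoxb3 (at least 3.10-fold) and Hoxb5 (at least 2.75-fold), with adjusted p from 0.00108 to 0.0178. Hoxa3, at 198, 136 and 181 in WT_vehicle and 806, 811 and 618 in WT_RA, was called with the block only (2.02, adjusted p = 0.0992, blocked 0.0101). Hoxa2, Hoxc4, Hoxc5, Hoxd1 and Hoxd3 were not called under RA in either line.

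**Figure D4:**
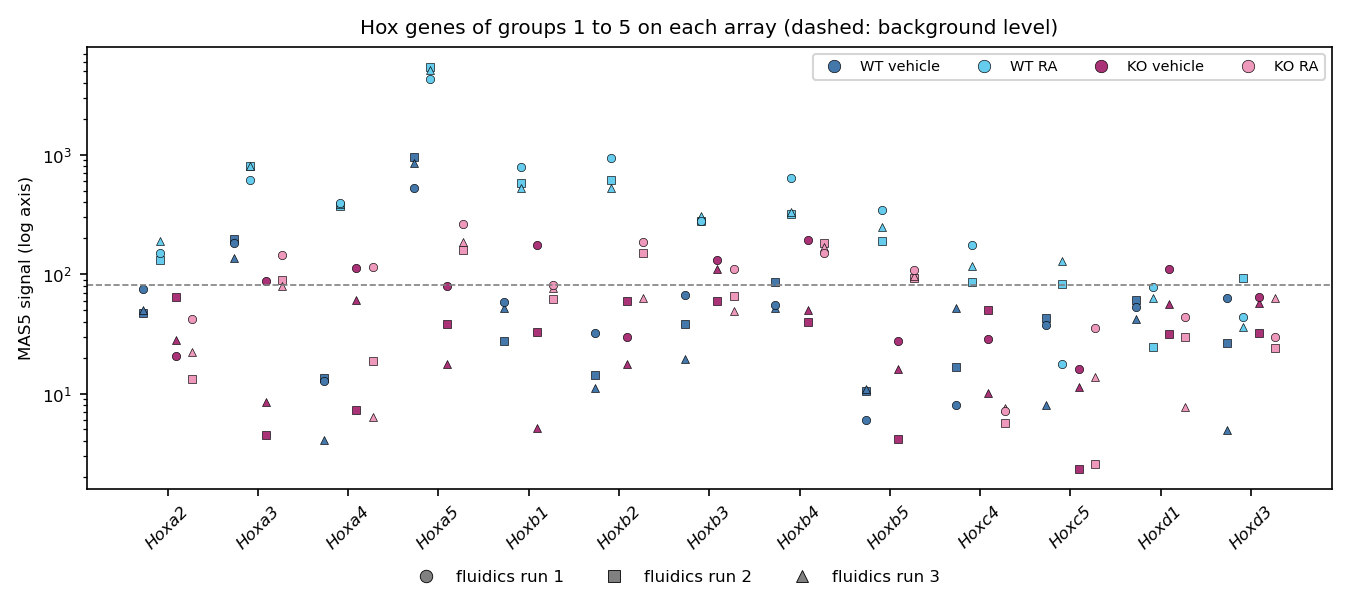
MAS5 signal (log axis) of 13 Hox genes (paralog groups 1 to 5) on every array; colours give the group, marker shapes the fluidics run, and the dashed line the background level of 81.6. The WT_RA points stand highest for Hoxa2 to Hoxb5, up to 5418 for Hoxa5.

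Between the lines (6.42% of all genes called in vehicle and 7.55% in RA), 2 of these Hox genes were lower in KO in vehicle, Hoxa5 (at least 7.84-fold, limma adjusted p = 2.25e-06) and Hoxa3 (at least 1.87-fold, 0.0103). In RA 8 were lower: Hoxa5 (-4.53), Hoxa3 (-2.68), Hoxb2 (-2.31), Hoxb1 (at least 6.52-fold), Hoxa4 (at least 3.73-fold), Hoxb3 (at least 2.85-fold), Hoxa2 (at least 1.75-fold) and Hoxc4 (at least 1.41-fold), with adjusted p from 3.85e-07 to 0.0226. The difference between the RA changes of the lines was not called for any of the 13 (8 at an unadjusted p under 0.05). The smallest adjusted p of these differences was 0.556 (0.0694 with the block). The comparisons in RA and the RA changes share the WT_RA arrays. Of 20 measured Hox genes of groups 6 to 13, 0 were called under RA in either line (3 in WT and 1 in KO at an unadjusted p under 0.05). With the block 1 rose in WT, where 3.35% of all genes were called in either direction. Between the lines 2 of these 20 were lower in KO in both treatments, named here after their values were seen: Hoxa10 (at least 3.25-fold in vehicle and 4.05-fold in RA, limma adjusted p = 0.00111 and 0.000859) and Hoxa11 (at least 2.36-fold and 1.99-fold, 0.0171 and 0.00858).

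Among other developmental genes known as Polycomb targets, 37 were measured. Under RA 4 of them rose in WT (0.489% of all genes did) and 1 in KO (0.137% of all), and with the block 8 and 3 were called (3.35% and 0.495% of all). Foxa1, a pioneer factor of endoderm, rose in both lines, with signals of 898, 950 and 979 in WT_vehicle and 4318, 4128 and 4130 in WT_RA, a change of 2.14 (limma adjusted p = 0.000818), and of 446, 229 and 242 in KO_vehicle and 2773, 3082 and 1263 in KO_RA, a change of 2.86 (9.27e-05). Cdx1, a direct regulator of Hox genes, rose at least 5.16-fold in WT (adjusted p = 0.00235) and was below background in both KO groups. Meis2, a Hox cofactor, rose by 1.13 in WT (adjusted p = 0.0301) and gave 1.10 in KO (0.113, blocked 0.00248). Irx3, a homeobox regulator of neural patterning, rose by 1.23 in WT (0.0261) and gave 0.44 in KO (0.869). The difference of the RA changes was not called for any of these 4 genes. Between the lines, 2 of the 37 were higher and 6 lower in KO in vehicle, and 1 was higher and 8 lower under RA, where 6.42% and 7.55% of all genes were called.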

How the data were processed

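RNA of F9 cells was hybridized to 12 Affymetrix mouse expression arrays. The authors deposited 1 intensity per probe set and array on a linear scale, made with MAS5 per the submitters' processing notes. The deposited values showed that each array had been scaled to a trimmed mean of 500. The MAS5 version and masking are not given in the sources used here. Experiment files gave the hybridization time, and arrays sharing it were taken as a fluidics run. Deviations from the group means correlated within runs (r = 0.123 to 0.556 over 18 pairs). The main fit left this pairing out, and the blocked fit took it in.

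Of 45101 probe sets 64 controls were left out. The annotation gave 34945 of the others 1 symbol, 932 several and 9160 none. The 95th percentile over 86 receptor probe sets, averaged over arrays, was taken as the background level. A gene was read from whichever of its probe sets had the highest mean on the log2 scale, and "at least" folds set the brighter mean against that level. Log2 of signal + 16 was fitted with limma 3.58.1 in R 4.3.3 (lmFit, eBayes with an intensity trend), with 4 groups, 8 residual degrees of freedom (6 with the run as a block) and 5 contrasts, and p-values were adjusted by Benjamini-Hochberg over 45037 probe sets. The unblocked fit was tested on simulated arrays with known changes and no run effect. The correlation within runs was not part of that test. The members and gene lists were chosen with earlier results of these data known. The text names all members, genes of the related lists called in a comparison or with the 3 smallest p for RA in WT, and the Hox genes of groups 1 to 5. Replicate numbers follow the order of deposition, and the labels do not say whether cultures were separate. The p-values therefore reflect the spread between arrays, which may be technical. Arrays have no read depth, so precision is limited by their number. Promoter sequences are from RefSeq, GRCm38.p6. Alternatives were other pseudocounts, scalings, filters, blocks, array weights, thresholds and left-out arrays.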

Additional observations from a re-analysis of the deposited data

How the results depend on the processing

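The number of member probe sets called depended on how the runs were handled, and also on the scaling, the intensity trend, the array weights and the groups fitted. For RA in WT it was 0, with 211 of all probe sets called. It became 1 with array weights (777 of all), only probe sets above background (261) or the run as a block (949). It was also 1 with run and chip lot as blocks (1033), a setting chosen after seeing the data. It became 2 with the title code as a block (1122) or with the run block and without KO_vehicle replicate 3 (1161). For KO against WT in vehicle it was 3 and became 6 with array weights, 8 with run and lot as blocks, 9 with the run block (also without KO_vehicle replicate 3), 10 with the title code as a block, 1 with centred arrays, with only the groups compared or at an adjusted p of 0.01, 0 without the intensity trend (784 of all probe sets were then called), and 1 to 3 with 1 array left out. For KO against WT in RA it was 4 and became 7 with array weights, 10 with the run, run and lot or title code as blocks, 2 with centred arrays, with quantile normalization or at 0.01, 1 without the trend, and 1 to 5 with 1 array left out. Between the lines the run block also raised the calls over all probe sets. They went from 1940 to 4235 in vehicle and from 2225 to 4466 in RA. For RA in KO and the difference the member count stayed 0 under every alternative. No direction of a called gene turned.

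Of 1300 recomputed gene changes 49 turned direction, 0 of them called in either fit, and the cause was not tested. Centring, which shifted the median of all probe sets by -0.1, 0.25, 0.34, -0.22 and 0.13 in the 5 contrasts, gave for RA in WT Ezh1 -0.06, Jarid2 -0.03 and Rnf2 -0.06; for RA in KO Ezh1 0.19, Eed 0.10, Suz12 0.22, Jarid2 0.20, Rnf2 0.10, Cbx7 0.03 and Phc1 0.21; for the difference Ezh1 0.26, Eed 0.26, Suz12 0.08, Jarid2 0.24, Rnf2 0.16 and Cbx2 0.06; and for KO against WT in RA Ezh2 0.02. Quantile normalization gave Ezh1 -0.05 and Eed 0.01 for RA in WT. The mean over probe sets gave Eed 0.46 for RA in WT, Suz12 0.07 for RA in KO and Bmi1 -0.35 for the difference. Array weights gave Suz12 -0.05 and Rnf2 -0.07 for RA in WT. Leaving out 1 array each turned the direction of further uncalled changes, whose full ranges were, for RA in WT, -0.03 to 0.07 (Ezh1), -0.16 to 0.06 (Ezh2), -0.32 to 0.54 (Suz12), -0.01 to 0.11 (Jarid2), -0.22 to 0.18 (Rnf2) and -0.11 to 0.05 (Cbx2); for RA in KO, -0.11 to 0.05 (Ezh1), -0.20 to 0.16 (Suz12), -0.15 to 0.03 (Jarid2) and -0.11 to 0.01 (Phc1); for the difference, -0.14 to 0.02 (Ezh1), -0.56 to 0.30 (Suz12), -0.36 to 0.08 (Rnf2) and -0.18 to 0.58 (Bmi1); and for KO against WT under RA, -0.00 to 0.16 (Rnf2). For Suz12 under RA in KO the lot block gave 0.03 and the run block without KO_vehicle replicate 3 gave 0.09.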
